A study of Mus musculus with 97 samples.

Results

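The comparison of oral ampicillin with oral saline holds 12 of the 97 libraries of the series, all RNA from whole mouse colon, and its members were chosen by their treatment label. The Ampicillin-PO group has 6 libraries from mice given 2.5 mg of ampicillin in 100 µl of phosphate-buffered saline (PBS) by gavage, and the PBS-PO group has 6 from mice gavaged with 100 µl of PBS alone. All the mice were wild-type C57BL6/J animals, 8 to 12 weeks old, dosed 2 times a day for 3 days and once on day 4, with tissue taken 4 hours after the last dose. The hour of the day at which tissue was taken is not given in the sources used here, and the labels do not say whether each library is a separate mouse, so the p-values, which draw on the spread within all 18 groups of the series, measure only a spread between libraries that may be technical. Values are the authors' TPM (transcript abundance scaled to transcript length), with the same total in every library, and the sequencing depth behind them is unknown.

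Ampicillin is a beta-lactam antibiotic that blocks the building of the bacterial cell wall, and by mouth it depletes many gut bacteria. Most cells of the colon carry a circadian clock, a loop of transcription factors in which ARNTL pairs with CLOCK or NPAS2, binds E-box sequences and turns on its own repressors (the PER and CRY proteins and CIART) and its output genes. The nuclear receptors NR1D1 and NR1D2 repress, and the ROR receptors activate, genes such as Arntl, Npas2 and Nfil3 through shared elements. DBP, TEF and HLF activate genes through D-box sequences, which NFIL3 also binds and represses. Feeding and gut microbes are both known to affect the clock of the intestinal lining.

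Of the 12 genes that passed the test, 5 belonged to the circadian clock. Among the 12, these held the 2 steepest drops and the largest rise. Some genes that did not pass had larger changes. The D-box activator Dbp, the repressors Ciart and Per3 and the clock-controlled protease gene Usp2 were lower after ampicillin, by 1.65 to 2.50 on the log2 scale, while Nfil3 was higher by 1.89. Outside the clock lists, Mvd of cholesterol synthesis, Aacs of ketone-body use, Ak7 and Coq10b were lower, and Rasl11a, Leo1 and Mb21d2 were higher. In all, 12 of 17083 tested genes passed an adjusted p of 0.05 (limma, Benjamini-Hochberg), which is 0.0702% of them: 4 were higher (0.0234%) and 8 were lower (0.0468%). A fit of these 12 libraries alone, without the spread borrowed from the other 16 groups, called 0 genes, with a smallest adjusted p of 0.0791 and 3267 genes at an unadjusted p under 0.05.

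The makeup of the 12 colon pieces was uneven, and the mean muscle score was higher in the ampicillin group, with overlap and with no test made. The mean log2(TPM + 1) of 18 muscle genes, taken as a smooth muscle score, was 10.99 ± 0.81 (SD, n = 6) in Ampicillin-PO and 9.80 ± 0.92 in PBS-PO. The ampicillin libraries scored 10.61, 9.73, 11.94, 11.61, 10.66 and 11.41 in replicates 1 to 6, and the PBS libraries 9.36, 11.33, 9.58, 8.62, 10.32 and 9.61. All 6 ampicillin libraries were above the PBS median and 3 were above the highest PBS library, replicate 2. Over all 97 libraries the score ran from 7.68 to 11.95, so the highest ampicillin library stood near the top of the series.

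A posterior Hox score, the same mean over 5 genes that are expressed towards the distal end of the gut (Hoxa13, Hoxb13, Hoxd11, Hoxd12 and Hoxd13), did not separate the groups. Ampicillin-PO had 3.51 ± 1.47 and PBS-PO 3.84 ± 1.86, in a series that ran from 0.801 to 6.15. Ampicillin replicates 1, 3, 4 and 6 scored 4.94, 3.31, 5.05 and 4.19, while replicates 2 and 5 both scored 1.79. PBS replicates 3, 4 and 6 scored 5.65, 5.96 and 4.85, while replicates 1, 2 and 5 scored 1.91, 2.10 and 2.55. Hoxb13 shows the size of this split: it ranged from 0.726 to 259 TPM in Ampicillin-PO and from 2.75 to 399 TPM in PBS-PO, so each group mixes libraries with high and low levels of distal genes. Each library listed between 19123 and 19865 genes above 0. Mitochondrially encoded transcripts took 5.69% to 20.3% of TPM in Ampicillin-PO and 6.77% to 16.7% in PBS-PO. The summed TPM of markers of other tissues was at most 17.8 for pancreatic acinar genes, 10.7 for squamous epithelium, 66.5 for mesothelium and 144 for adipocytes. It reached 210.1 for skeletal muscle (Ampicillin-PO replicate 3), 221 for red blood cells (PBS-PO replicate 3) and 382 and 362 for the small intestine (Ampicillin-PO replicates 2 and 5). Most of that skeletal muscle sum was Ckm, at 199 TPM, and most of the 2 small intestine sums was Apob, at 338 and 328 TPM. Both genes were present in all 12 libraries, Ckm at 14.4 TPM or more and Apob at 19.6 TPM or more. The skeletal muscle and small intestine sums thus do not by themselves show that other tissue was present. The acinar gene Amy2a5 was at 10.1 TPM in Ampicillin-PO replicate 6 and at most 0.170 TPM in the other libraries. The squamous gene Krt13 was at 4.29 TPM in PBS-PO replicate 3 and at most 0.204 TPM in the others. Whether any library held other tissue was not tested.

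**Figure D1:**
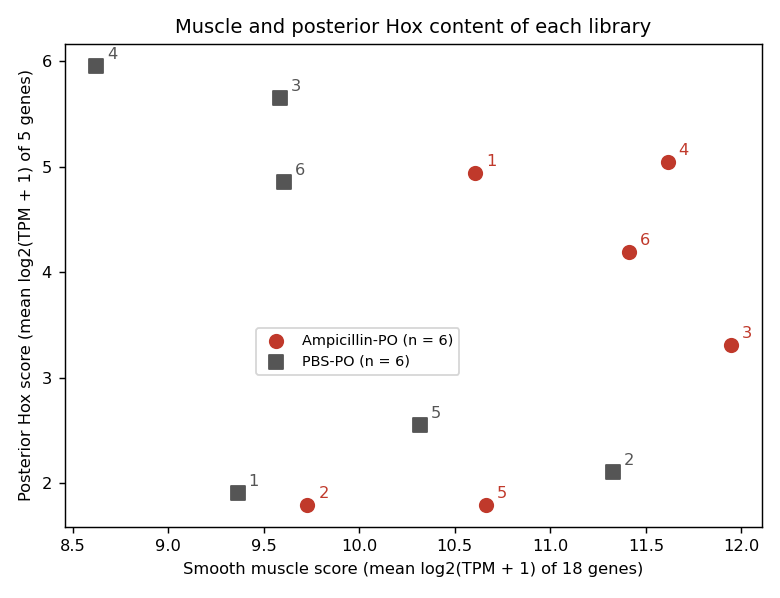
Smooth muscle score (x axis) against posterior Hox score (y axis), both as mean log2(TPM + 1), for each of the 12 libraries, numbered by replicate. The ampicillin libraries (circles) lie to the right, at muscle scores of 9.73 to 11.94, and the PBS libraries (squares) at 8.62 to 11.33, while both groups spread over low and high Hox scores.

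A second fit added the muscle score and the Hox score as covariates. It called 38 genes (0.222% of those tested), 18 higher (0.105%) and 20 lower (0.117%), and all 12 genes above were among them. The median log2 fold change of all tested genes was 0.08 without the covariates and 0.03 with them, and 58.3% of genes had a fold above 0. In bulk tissue, fewer cells of a type and less RNA per cell cannot be told apart.

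Dbp (ENSMUSG00000059824, chromosome 7), the D-box activator and a direct output of the clock, lay between 13.9 and 84.4 TPM in the ampicillin libraries (median 48.4) and between 158 and 378 TPM in the PBS libraries (median 224). The highest ampicillin library was thus below the lowest PBS library. Its log2 fold change was -2.50 ± 0.44 (SE), with an adjusted p of 0.000949 by limma. With the covariates it was -2.87. The part of tissue makeup in this change was not tested.

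Nfil3 (ENSMUSG00000056749, chromosome 13), the D-box repressor, ran the other way, from 4.604 to 14.8 TPM after ampicillin (median 8.86) and from 0.952 to 3.12 TPM after PBS (median 1.80). No library overlapped between the groups, and the fold change of 1.89 ± 0.29 carried the smallest adjusted p of the comparison, 8.64e-05 by limma. Tef, the other D-box activator with a marked drop in its mean, was at 83.6 ± 36.1 TPM (SD, n = 6) against 176 ± 71.2 TPM. It did not pass the test without covariates (log2 fold change -1.08, adjusted p = 0.275 by limma) and did with them (-1.43, adjusted p = 0.0319). Hlf, the third of the family, varied from 4.89 to 63.9 TPM among ampicillin libraries and from 6.51 to 79.4 TPM among PBS libraries, and it passed neither fit.

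Ciart (ENSMUSG00000038550, chromosome 3), a repressor of the ARNTL complex, stood at 2.06 to 8.50 TPM after ampicillin (median 3.19) and 11.1 to 39.4 TPM after PBS (median 24.0). It fell by 2.27 ± 0.38 on the log2 scale, with an adjusted p of 0.000532 (limma). Per3 (ENSMUSG00000028957, chromosome 4), a member of the period family, measured 10.8 to 43.9 TPM against 48.7 to 86.2 TPM. The groups of both genes were apart, with the ampicillin library nearest to PBS being replicate 5 in each case. Per3 fell by 1.65 ± 0.28, with an adjusted p of 0.000637 (limma).

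The remaining repressors were not called. Per1 had means of 29.4 ± 6.92 and 36.4 ± 10.6 TPM (SD, n = 6), and Per2 ranged from 6.45 to 94.6 TPM in Ampicillin-PO and from 13.96 to 225 TPM in PBS-PO. Cry1, which together with the PER proteins inhibits the ARNTL complex, had a higher median after ampicillin, 41.1 against 8.10 TPM. Its lowest ampicillin library, replicate 6 at 10.4 TPM, lay within the PBS range of 2.66 to 27.2 TPM, and its fold change of 1.97 ± 0.65 gave an adjusted p of 0.246 (limma). Cry2 was near equal, at 30.8 ± 4.34 and 28.4 ± 5.37 TPM.

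Among the activators, Arntl was at 20.6 to 39.6 TPM in the ampicillin libraries (median 26.8) and 4.09 to 17.7 TPM in the PBS libraries (median 9.57). The 2 ranges did not touch, but its fold change of 1.47 ± 0.42 missed the threshold in the fit without covariates (adjusted p = 0.199, limma) and passed with them, at 1.70 (adjusted p = 0.00149). Npas2, which can stand in for CLOCK, had means of 19.9 ± 7.79 against 10.7 ± 4.07 TPM and followed the same course, with an adjusted p of 0.304 without and 0.0287 with covariates. Clock itself was at 91.0 ± 8.12 against 73.7 ± 14.5 TPM and passed neither fit.

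Of the nuclear receptors, Nr1d2 was nearest the threshold. It measured 45.1 to 89.6 TPM after ampicillin and 75.9 to 175 TPM after PBS, and 5 of 6 ampicillin libraries were below every PBS library. Its fold change was -0.88 (adjusted p = 0.0788, limma), and -1.01 with covariates (adjusted p = 0.00196). Nr1d1 had means of 120.1 ± 24.6 and 151 ± 30.0 TPM (log2 fold change -0.33), and Rora and Rorb had fold changes of 0.58 and 0.52, neither of them called, with Rora below 0 in the covariate fit.

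Usp2 (ENSMUSG00000032010, chromosome 9), a deubiquitinating enzyme whose transcript follows the clock in many tissues, was tight after ampicillin, at 16.7 to 31.4 TPM with a median of 18.1 TPM. The PBS libraries lay above all of these, at 43.3 to 131 TPM (median 67.9), and the fold change was -1.77 ± 0.35 (adjusted p = 0.0056, limma). Leaving out PBS-PO replicate 3, the highest library, moved the adjusted p to 0.0563. Wee1, a cell cycle kinase gene under clock control, and Bhlhe40 and Bhlhe41, repressors that bind E-boxes, had fold changes of -0.48, -0.35 and -0.56. Bhlhe41 passed with the covariates, at -1.20 (adjusted p = 0.00153).

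Over all 22 clock genes tested, 1 was called higher and 4 were called lower, 17 were not called, and the median fold change was -0.34, against 0.08 over all genes. With the covariates 3 were called higher and 7 lower. Over all tested genes, 0.0234% were called higher and 0.0468% lower without covariates, and 0.105% and 0.117% with them. Ranges that did not overlap were seen for 2 clock genes in the higher and 4 in the lower direction, where 0.521% and 0.082% of all genes had such ranges. The clock lists were drawn up with earlier results of these data known, so no test of the lists was made.

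**Figure D2:**
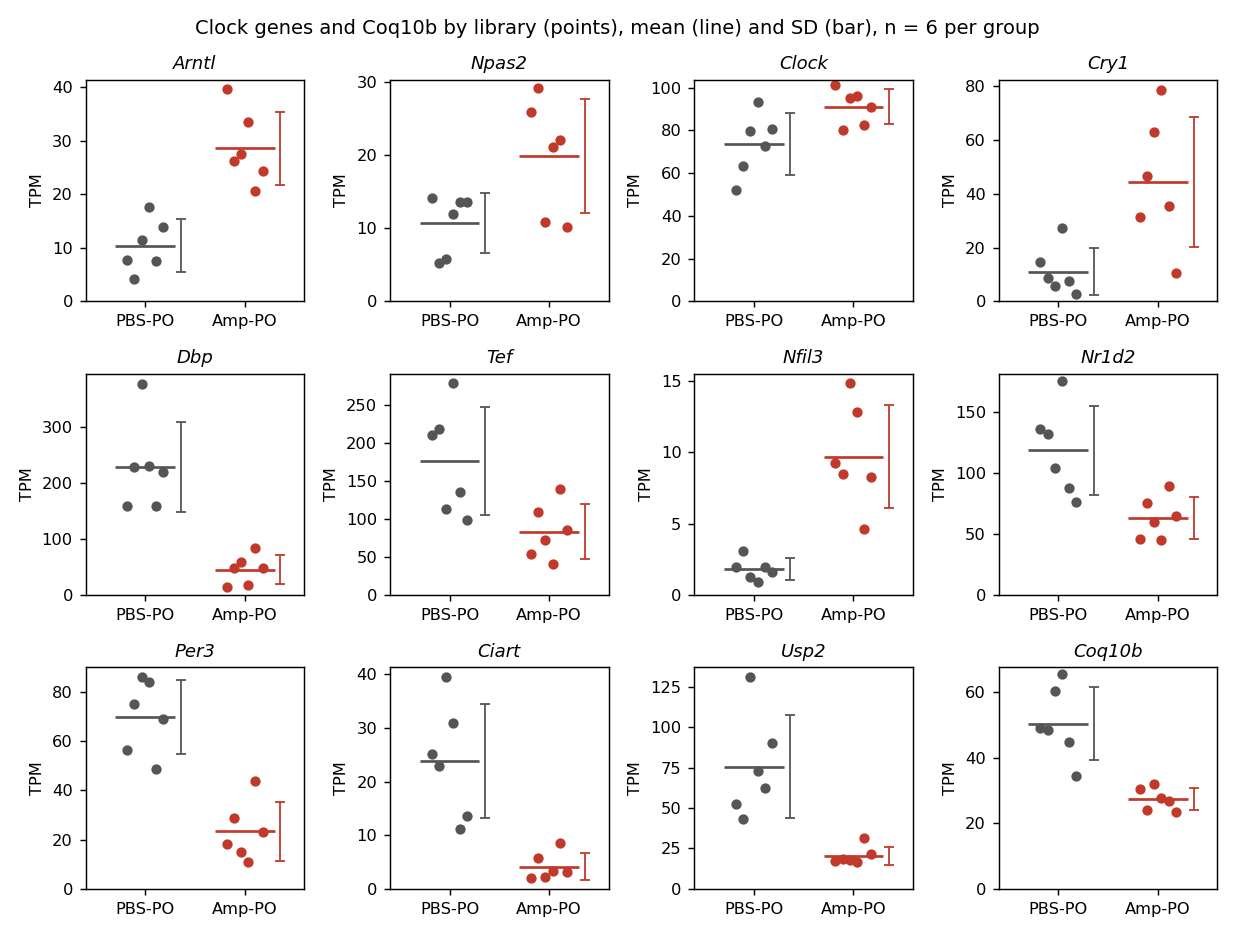
TPM of 11 clock genes and Coq10b in each library (points), with the group mean (line) and SD (bar), 6 libraries a group. For Dbp, Nfil3, Per3, Ciart, Usp2, Arntl and Coq10b the ampicillin and PBS points do not overlap; for Tef, Cry1, Npas2, Clock and Nr1d2 they do.

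The 250 bases before the annotated start of these genes were read for the letters through which clock factors are known to act: CACGTG (E-box), TTANGTAA (D-box) and TAGGTCA (the ROR element, shared by the ROR and NR1D receptors), on both strands and with no overlapping matches. RefSeq windows were found for 25 of 29 clock and called genes, and 6 genes held an E-box, 3 a D-box and 2 a ROR element. Among 32851 windows of the same length in the table, 6.02% held an E-box, 2.06% a D-box and 2.23% a ROR element. The gene counts take in a match in any window of a gene, and some genes have several windows. These percentages are per window, so the counts and the percentages are not in the same unit. Shown here are the windows of the called genes that held a match, on build GRCm38.p6, each written 5′ to 3′ along its gene with the matches in capitals.
Ciart, chr3:95882229-95882478, minus strand: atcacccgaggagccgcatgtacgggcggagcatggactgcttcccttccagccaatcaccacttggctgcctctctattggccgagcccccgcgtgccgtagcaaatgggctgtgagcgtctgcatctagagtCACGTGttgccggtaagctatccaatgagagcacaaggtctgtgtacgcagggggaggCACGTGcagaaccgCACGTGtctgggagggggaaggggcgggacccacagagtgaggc
Per3, chr4:151044666-151044915, minus strand: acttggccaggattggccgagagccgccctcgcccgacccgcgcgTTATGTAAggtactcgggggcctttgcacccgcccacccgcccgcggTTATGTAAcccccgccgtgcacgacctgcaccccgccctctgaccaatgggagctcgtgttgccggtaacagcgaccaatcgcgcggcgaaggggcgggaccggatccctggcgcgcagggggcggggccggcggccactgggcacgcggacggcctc
Coq10b, chr1:55052520-55052769, plus strand: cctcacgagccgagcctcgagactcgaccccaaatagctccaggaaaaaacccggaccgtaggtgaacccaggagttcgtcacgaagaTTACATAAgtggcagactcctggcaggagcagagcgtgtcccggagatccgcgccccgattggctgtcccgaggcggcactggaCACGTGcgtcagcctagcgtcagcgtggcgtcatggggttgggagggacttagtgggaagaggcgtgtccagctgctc
Nfil3, chr13:52981040-52981289, minus strand: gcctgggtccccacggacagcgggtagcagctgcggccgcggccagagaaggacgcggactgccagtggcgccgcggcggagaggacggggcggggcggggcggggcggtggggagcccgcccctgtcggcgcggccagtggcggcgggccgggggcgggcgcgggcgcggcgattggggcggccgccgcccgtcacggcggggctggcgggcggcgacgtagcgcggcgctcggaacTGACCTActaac
Leo1, chr9:75441274-75441523, plus strand: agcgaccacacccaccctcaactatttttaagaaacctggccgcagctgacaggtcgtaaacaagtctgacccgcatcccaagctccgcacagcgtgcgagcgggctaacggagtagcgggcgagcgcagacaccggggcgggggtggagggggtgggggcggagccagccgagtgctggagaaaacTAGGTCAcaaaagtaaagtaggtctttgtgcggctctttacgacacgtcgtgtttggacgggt
Ciart, one of the steepest drops among the called genes, holds 3 E-boxes, and Per3 holds 2 D-boxes. Coq10b, which is described further on, holds an E-box and a D-box, while the higher genes Nfil3 and Leo1 each hold a ROR element, in Nfil3 on the opposite strand. The other called genes, Dbp, Usp2, Aacs, Mvd, Rasl11a, Mb21d2 and Ak7, hold none of these letters in this window. A match is a description of the letters and not of binding.

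Coq10b (ENSMUSG00000025981, chromosome 1), which encodes a coenzyme Q binding protein of mitochondria, was lower after ampicillin in every library, at 23.5 to 31.998 TPM against 34.4 to 65.4 TPM. Its fold change was small but steady, -0.83 ± 0.15 (adjusted p = 0.000949, limma). Leo1 (ENSMUSG00000042487, chromosome 9), a subunit of the PAF1 complex that travels with RNA polymerase II, showed the mirror image, at 19.3 to 26.3 TPM after ampicillin and 9.93 to 14.4 TPM after PBS. It was higher by 0.77 ± 0.14 (adjusted p = 0.00113, limma), again with no overlap. Both calls held when any 1 of the 12 libraries was left out, as did those of Dbp, Nfil3, Ciart and Per3, with adjusted p-values of at most 0.0158.

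The other called genes were less firm. Mb21d2 (ENSMUSG00000051065, chromosome 16), a gene of little known function, was at 18.7 to 24.0 TPM against 9.02 to 17.1 TPM, a fold change of 0.62 ± 0.14 with an adjusted p of 0.0344 (limma). Rasl11a (ENSMUSG00000029641, chromosome 5), a small GTPase of the RAS-like family, was more variable, at 1.81 to 15.1 TPM (median 6.95) against 0.597 to 3.60 TPM (median 0.938). Ampicillin replicates 2 and 5, at 2.59 and 1.81 TPM, were below PBS replicate 2 at 3.60 TPM. Those 2 ampicillin libraries have the lowest Hox scores of their group, and PBS replicate 2 has the highest muscle score of its own. The fold change of Rasl11a was 1.77 ± 0.39 (adjusted p = 0.0317, limma) and 1.23 with the covariates.

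Ak7 (ENSMUSG00000041323, chromosome 12), an adenylate kinase known from motile cilia, was near the floor of the table after ampicillin, at 0.153 to 0.578 TPM. In PBS-PO it ranged from 0.319 to 6.20 TPM, and it was high in replicates 3, 4 and 6 (6.20, 2.14 and 3.505 TPM), the 3 PBS libraries with high Hox scores. The fold change was -1.05 ± 0.23 (adjusted p = 0.0264, limma), and -0.86 with the covariates. Calls were lost when single libraries were left out for Mb21d2 (7 of 12 libraries, adjusted p up to 0.281), Rasl11a (8 of 12, up to 0.196) and Ak7 (6 of 12, up to 0.285), and with quantile normalization for Mb21d2 and Ak7.

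Lipid synthesis supplied the last pair of called genes. Aacs (ENSMUSG00000029482, chromosome 5) encodes acetoacetyl-CoA synthetase, which activates ketone bodies for fatty acid and sterol synthesis, and it measured 13.2 to 43.2 TPM after ampicillin (median 31.8) against 39.9 to 120.4 TPM after PBS (median 73.7). Only ampicillin replicate 2 reached into the PBS range, past PBS replicate 2. Aacs fell by 1.41 ± 0.28 (adjusted p = 0.0056, limma), a call lost without ampicillin replicate 4 or 6 or PBS replicate 4 (adjusted p up to 0.108). Mvd (ENSMUSG00000006517, chromosome 8), the mevalonate pathway decarboxylase, was at 11.4 to 34.4 TPM against 27.4 to 77.5 TPM, with ampicillin replicate 1 highest in its group. Mvd fell by 1.33 ± 0.30 (adjusted p = 0.0345, limma), a call lost in 8 of 12 leave-one-out fits (adjusted p up to 0.213).

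Mvd was the 1 called gene among 25 genes of cholesterol synthesis and uptake, where 0.0702% of all genes were called. Of the 25, 24 had a negative fold change, with a median of -0.49, and 12 were lower at an unadjusted p under 0.05, against 5.5% of all tested genes. Lss, which closes the sterol ring, was at 19.8 ± 5.70 against 38.1 ± 13.8 TPM (SD, n = 6) and had an adjusted p of 0.215 (limma). Fdft1, which makes squalene, was at 54.3 ± 9.54 against 96.1 ± 29.9 TPM with the same adjusted p, and Hmgcs1, at the head of the pathway, at 159 ± 41.5 against 228 ± 86.7 TPM. With the covariates the median of the list was -0.32, and Mvd was still its 1 called gene. The median was thus nearer 0 with muscle and Hox content in the fit.

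**Figure D3:**
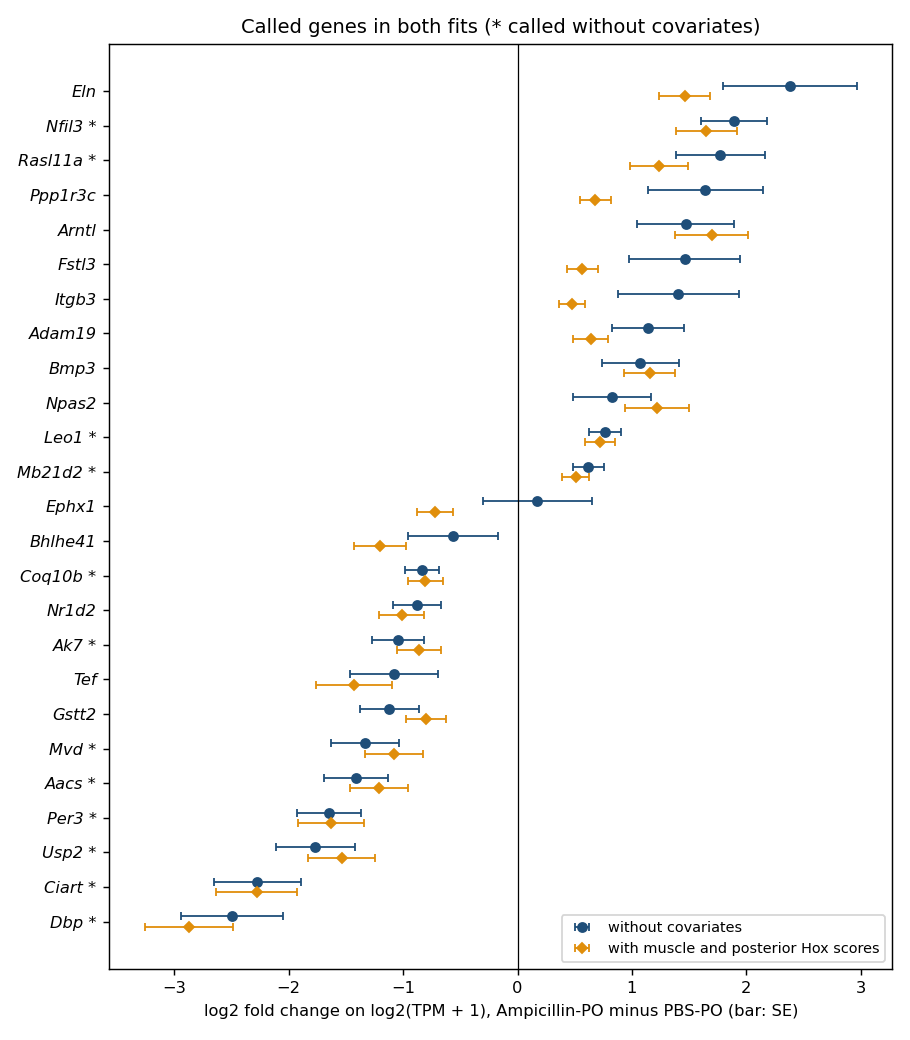
Log2 fold change (x axis, ampicillin minus PBS, bar: SE) of the called genes and of further named genes that were called with covariates and not without them, shown without covariates (circles) and with the muscle and Hox scores (diamonds). Dbp, Ciart, Per3, Nfil3 and Arntl differ little between the fits, Eln, Fstl3, Itgb3 and Ppp1r3c move towards 0, and Ephx1 changes sign.

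Genes not called in the fit without covariates but called with them included structural and signalling genes. Eln, which encodes elastin, was at 56.6 to 511 TPM after ampicillin (median 243) and 18.2 to 106 TPM after PBS (median 30.8). Its fold change of 2.38 ± 0.58 had an adjusted p of 0.103 without covariates and was 1.46 ± 0.22 with an adjusted p of 2.97e-05 with them (limma). The 2 lowest ampicillin values, 56.6 and 87.9 TPM in replicates 2 and 5, were below the highest PBS value, 106 TPM in replicate 2. The growth factor gene Bmp3 was at 71.8 to 143 TPM against 26.2 to 78.9 TPM, with a fold change of 1.07 without and 1.16 with covariates (adjusted p = 0.216 and 0.00196, limma).

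Ppp1r3c, a glycogen-targeting subunit of protein phosphatase, Adam19, a membrane protease, Fstl3, a secreted activin antagonist, and Itgb3, an integrin subunit, had covariate fold changes of 0.68, 0.64, 0.57 and 0.48, all smaller than the 1.64, 1.14, 1.46 and 1.41 without covariates. Gstt2, a glutathione transferase, was at 17.9 ± 5.43 against 41.5 ± 15.5 TPM (SD, n = 6), with fold changes of -1.12 and -0.80 in the 2 fits (adjusted p = 0.0563 and 0.0168, limma). Ephx1, an epoxide hydrolase, was called lower with covariates (-0.72, adjusted p = 0.0141, limma) although its group means were 58.5 ± 29.3 and 52.3 ± 29.3 TPM and its fold change without covariates was 0.17, so that call rests on the covariate model.

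In whole, 103 tested genes (0.603%) had groups that did not overlap, 89 of them higher after ampicillin (0.521%) and 14 lower (0.082%), and most of these were not called. The chromatin gene Ubn2 was at 164 to 428 TPM against 32.03 to 129.98 TPM, the zinc finger gene Zfp318 at 26.0 to 61.2 against 11.7 to 17.9 TPM, and the splicing factor gene Zrsr2 at 47.1 to 109 against 22.9 to 42.3 TPM. Their fold changes were 1.64, 1.26 and 1.12, with adjusted p-values of 0.275, 0.199 and 0.19 (limma). Kctd17 and the stress factor gene Atf4 were also apart, by 0.78 and 0.41, as was Niban2 in the lower direction, by -0.54. These genes were separate in all 12 libraries but did not pass the test over all genes.

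No member of the cell-type lists was called in the fit without covariates or in the fit with them. The medians of the lists differed between the fits with and without the muscle score. All 18 smooth muscle genes had fold changes above 0, with a median of 1.19 and 7 at an unadjusted p under 0.05, against 10.4% of all genes. Acta2, smooth muscle actin, was at 1672 to 8294 TPM after ampicillin and 913 to 5140.04 TPM after PBS, and Cald1, which binds actin, at 941 to 4090 against 253 to 2206 TPM. With the covariates the muscle median was -0.03, which follows from the score being made of these genes. Enteric neurons and glia (20 of 20 above 0, median 0.97, covariates -0.02) and fibroblasts (16 of 16, median 0.76, covariates 0.01) behaved alike. The neuronal RNA-binding protein gene Elavl3 was at 15.1 to 50.3 TPM against 2.85 to 30.6 TPM, and the collagen gene Col1a1 at 147 to 929 against 84.8 to 409.7 TPM.

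Lists of the main epithelial cells had medians below 0, while tuft cell genes (10 of 10 above 0, median 0.22) and enteroendocrine genes (7 above and 7 below, median 0.03) did not. Goblet cell genes had a median of -1.17, with 15 of 16 below 0 and 5 lower at an unadjusted p under 0.05, against 5.5% of all genes. Agr2, needed for mucin folding, had medians of 72.4 and 386 TPM and Spink4, a goblet cell peptide, 33.7 and 254 TPM, while the mucin gene Muc2 ran from 113 to 4227 TPM in Ampicillin-PO and from 1053 to 6594 TPM in PBS-PO. Surface colonocyte genes had a median of -0.56 and proliferation genes one of -0.83, with 21 of 24 below 0. Mki67, a marker of dividing cells, had medians of 40.3 and 103 TPM. With the covariates these medians were -0.24 for goblet cells, -0.21 for surface colonocytes and -0.46 for proliferation, so the lists lay closer to 0 in that fit. The part of tissue makeup in each of these values was not tested.

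B cell and follicle genes were the list with the highest median, 1.28, and 1.54 with the covariates, yet none of its 15 genes reached an unadjusted p under 0.05. Pax5, a B cell transcription factor, was at 98.4, 33.2, 9.58, 244, 16.2 and 116 TPM in ampicillin replicates 1 to 6 and at 2.43, 0.0276, 34.7, 25.6, 4.54 and 43.7 TPM in PBS replicates 1 to 6. The ampicillin libraries thus ranged over more than the difference between the group means, and 3 of them lay within the PBS range. Cd79a, a chain of the B cell receptor, varied likewise, from 3.501 to 103 TPM and from 1.05 to 18.4 TPM. All 9 MHC class II genes had a fold change above 0 (median 0.73, covariates 0.95), and plasma cell genes a median of -0.41, which was -0.00 with the covariates.

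**Figure D4:**
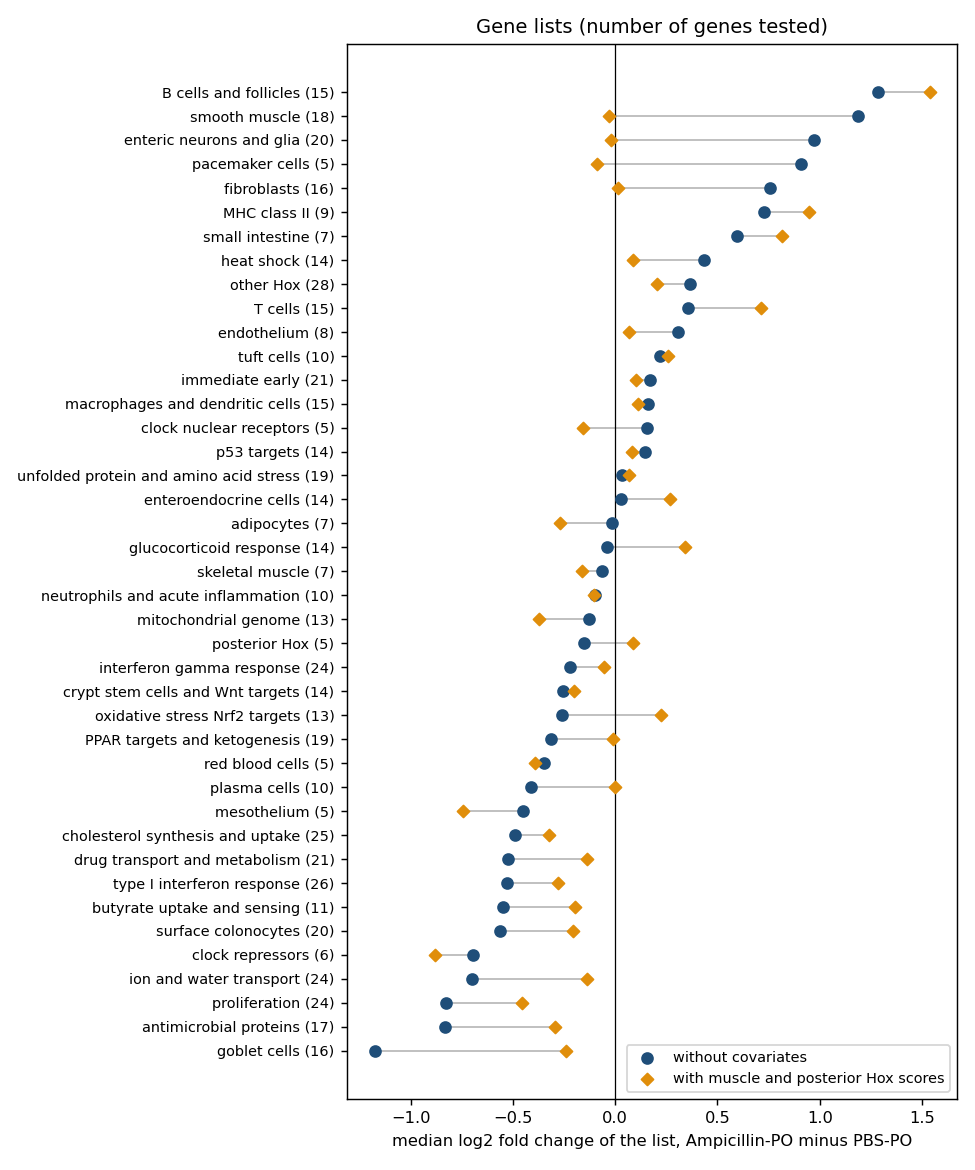
Median log2 fold change (x axis, ampicillin minus PBS) of each gene list with at least 5 tested genes, without covariates (circles) and with the muscle and Hox scores (diamonds), with the number of genes tested in brackets. Muscle, neuron and fibroblast lists shift from about 1 to about 0 with the covariates, and the goblet list from -1.17 to -0.24.

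Defence and drug-handling genes were mostly lower in mean and none was called in either fit. Of 26 genes of the type I interferon response, 23 had a negative fold change (median -0.53, covariates -0.28) and 8 were lower at an unadjusted p under 0.05, against 5.5% of all genes. Isg15, a ubiquitin-like modifier, was at 2.16 to 14.98 TPM against 10.6 to 28.8 TPM, Zbp1, a sensor of nucleic acids, at 3.35 to 14.1 against 8.45 to 65.8 TPM, and Ifit3 at 5.49 to 24.6 against 10.9 to 34.1 TPM. For each of these genes the 2 groups overlapped, and the adjusted p-values were 0.221, 0.17 and 0.295 (limma). Of 24 interferon gamma response genes, 19 were below 0 (median -0.22, covariates -0.05).

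Duoxa2, the maturation factor of the epithelial oxidase DUOX2, was apart in all libraries, at 0.887 to 26.3 TPM after ampicillin (median 10.7) and 32.7 to 85.1 TPM after PBS (median 58.9). Its fold change of -2.41 ± 0.66, and -2.45 with covariates, had adjusted p-values of 0.19 and 0.109 (limma). Duox2 was at 12.8 to 163 TPM against 106 to 294 TPM. The oxidase pair thus differed in both means without passing the test.

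Cyp2c55, a cytochrome P450 of the colon lining, varied widely, from 8.93 to 503 TPM after ampicillin (median 21.5) and from 104 to 2780 TPM after PBS (median 472). Ampicillin replicates 2 and 5 held 385 and 503 TPM, and the other ampicillin libraries 28.8 TPM or less. Abcb1a, a drug efflux pump, was at 22.8 to 242 TPM against 163 to 1045 TPM. Their fold changes were -3.40 and -2.49, with adjusted p-values of 0.296 and 0.215 (limma), and the 21 drug transport and metabolism genes had a median of -0.52 without and -0.14 with covariates.

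Among 24 ion and water transport genes, 21 were below 0 (median -0.70, covariates -0.14). The water channel gene Aqp8 had medians of 169 and 755 TPM and the butyrate carrier gene Slc5a8 38.0 and 146 TPM. The phosphate carrier gene Slc34a2 went the other way, at 51.9 to 77.8 TPM in ampicillin replicates 1, 2, 4 and 5 and at 5.29 and 21.6 TPM in replicates 3 and 6, against 5.49 to 15.9 TPM in PBS-PO. It was above every PBS library in 5 of 6 ampicillin libraries, with an adjusted p of 0.232 (limma). Heat shock genes had a median of 0.44 (covariates 0.09), led by the chaperone gene Hsph1 at 72.5 to 248 TPM against 20.7 to 87.9 TPM. The immediate early gene Dusp1, a phosphatase, was apart at 34.0 to 135 TPM against 25.2 to 30.0 TPM, and Ier5 had a fold change of 0.74 with an adjusted p of 0.157. The stress gene Herpud1 lay lower, at 71.4 ± 12.7 against 112 ± 25.2 TPM (SD, n = 6).

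Ampicillin was also given into the peritoneum and into a vein, each with its own PBS group, so the oral effect could be set against the injected ones in independent libraries. A limma F test of whether the ampicillin effect differed among the 3 routes called 0 genes (0% of 17083), with 241 genes at an unadjusted p under 0.05. Dbp was lower by 2.50 ± 0.44 by mouth, with changes of -2.82 ± 0.50 in the peritoneum (6 against 4 libraries) and -2.74 ± 0.47 in the vein (6 against 5). Its mean was 225 ± 51.9 TPM in PBS-IP and 248 ± 45.5 TPM in PBS-IV, close to the 229 ± 79.9 TPM of PBS-PO, and 34.5 ± 19.6, 47.5 ± 40.8 and 45.3 ± 26.3 TPM after ampicillin by peritoneum, vein and mouth.

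Ciart (-2.14 and -2.21), Per3 (-1.37 and -1.47), Coq10b (-0.91 and -0.90) and Leo1 (0.84 and 0.94) were also called in both injected comparisons, with adjusted p-values of at most 0.0176 (limma). Nfil3 was called in the peritoneum (1.52, adjusted p = 0.00776) and not in the vein (1.30, adjusted p = 0.0582), and Usp2 in the vein (-1.64, adjusted p = 0.0362) and not in the peritoneum (-0.79, adjusted p = 0.485). Aacs had smaller changes when ampicillin was injected, -0.74 and -0.65, and was called in neither. The share of all tested genes called in the injected comparisons is not given here, so these calls describe single genes only. Ak7 changed by -0.19 in the vein, while in the peritoneum its means were 0.441 ± 0.284 TPM after ampicillin and 1.59 ± 0.931 TPM after PBS (SD). For none of the 12 genes did the route test find a difference (adjusted p of 0.989 or above, limma F test). The standard errors leave room for moderate differences between routes, so the test does not show that the effects were equal. In PBS-IP 2 of 4 libraries and in PBS-IV 2 of 5 were placed out of order at the end of the table.

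**Figure D5:**
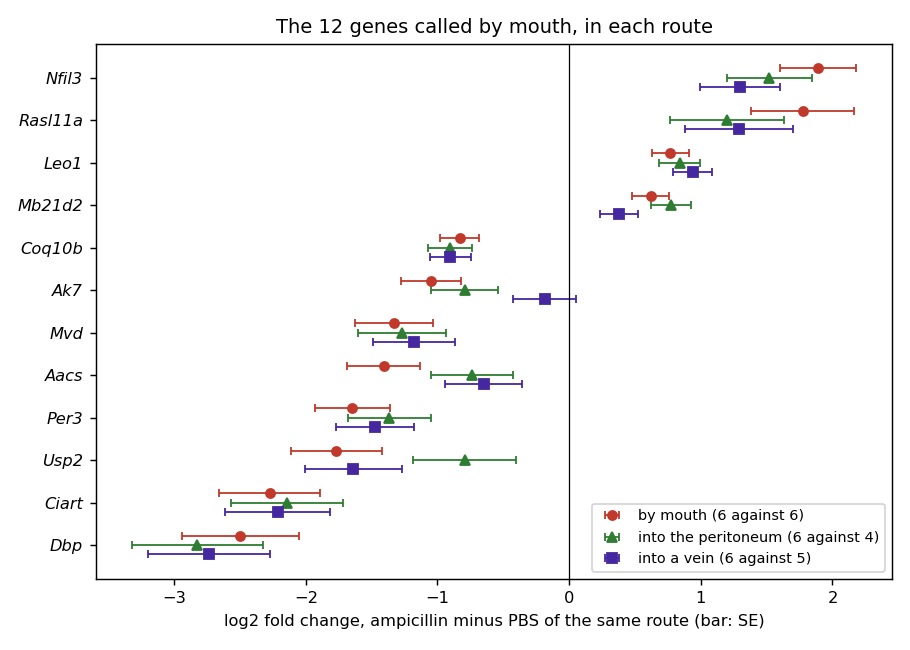
Log2 fold change of the 12 called genes (x axis, ampicillin minus the PBS group of the same route, bar: SE) by mouth, into the peritoneum and into a vein. Dbp, Ciart, Per3, Coq10b, Leo1 and Mvd lie close together in the 3 routes, while Aacs, Usp2 and Ak7 are spread more widely.

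Set directly against oral vancomycin, another antibiotic that blocks cell wall synthesis, oral ampicillin gave 0 called genes (0%, limma), with 1110 at an unadjusted p under 0.05. Dbp was at 52.0 ± 43.5 TPM (SD, n = 6) in Vancomycin-PO and 45.3 ± 26.3 TPM in Ampicillin-PO, a difference of -0.06 ± 0.44 on the log2 scale. Nfil3, Ciart and Per3 differed by 0.28 ± 0.29, 0.39 ± 0.38 and -0.01 ± 0.28. The standard errors leave room for moderate differences in either direction. Vancomycin-PO had a smooth muscle score of 10.28 ± 1.61 (SD, n = 6), running from 7.68 to 11.63. Of its 6 libraries, 3 were placed out of order at the end of the table.

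Against the oral mix of ampicillin, vancomycin, neomycin and metronidazole (Mix-PO), 10 genes were called (0.0585%), 7 lower in Ampicillin-PO (0.041%) and 3 higher (0.0176%). Dbp averaged 164 ± 58.9 TPM in Mix-PO and was lower under ampicillin alone by 1.98 ± 0.44 (adjusted p = 0.0444, limma). Ciart averaged 20.9 ± 11.3 TPM in Mix-PO and was lower by 1.9986 ± 0.38 (adjusted p = 0.0214). Per3, Per1, Wee1, Aacs and Lss were the other lower genes, by 1.43, 1.26, 1.13, 1.38 and 1.19. Per1, Wee1 and Lss had not been called against PBS-PO, and Mix-PO had a smooth muscle score of 9.78 ± 1.08 and a posterior Hox score of 2.08 ± 1.15, both lower than in Ampicillin-PO in the mean. Genes at an unadjusted p under 0.05 numbered 3232 without and 818 with the covariates, while 10 and 11 genes were called. The 3 higher genes, Gm13394, Gm6192 and Rps2-ps6, are gene models or pseudogenes whose reads can be shared with near-identical copies; they were named after their values were seen. The count of 10 fell to 0 when Mix-PO replicate 2 or 3 was left out, to 1 without Ampicillin-PO replicate 3, and to between 2 and 6 without Ampicillin-PO replicate 1, 4 or 6 or any other Mix-PO replicate.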

How the data were processed

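RNA from whole colon was poly(A)-selected and sequenced as single-end reads on a NextSeq 550, per the labels' protocols. The submitters' processing notes name Trim Galore 0.6.2, cutadapt 3.5, Salmon and GRCm39. The authors deposited 1 table of TPM values for 20457 genes in 97 libraries, each column with the same total; read depth is unknown, so no interval from counts can be given. Values were tested as log2(TPM + 1) with limma 3.58.1 (trend, robust; R 4.3.3) for the 17083 genes with a TPM of at least 1 in at least 4 libraries. All 18 groups were in 1 fit, with Benjamini-Hochberg adjustment within a comparison and calls at an adjusted p under 0.05. Fold changes are on the log2(TPM + 1) scale and understate low genes. Alternatives were another pseudocount, no filter, quantile normalization, rescaling without mitochondrial genes, array weights, the compared groups alone, a replicate block, muscle and Hox scores as covariates, and leaving libraries out. The fit was tested on simulated data in which genes varied independently and tissue makeup did not differ. The error rate of the fit under uneven tissue makeup was not examined. Named genes are all called genes, all clock genes, the members of other lists with the smallest p or highest mean, and the genes with the largest change among those called with covariates or with groups that do not overlap; from these the text gives examples, and 1 item is not reported here. Members and lists were chosen with earlier results of these data known. Gene identifiers are those of the table; promoter sequences come from RefSeq on GRCm38.p6, and no coordinate was converted.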

Additional observations from a re-analysis of the deposited data

Results flagged for a closer look

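Among the 12 libraries, single values stood far from the rest of their group by Dixon's test in 15 of 150 groups of 6 examined. Chance flags about 1 group in 20 when values are normal and independent. The test was made on TPM without a log, and genes of the same library can move together, so that rate is not a standard for the count of 15. All flagged values lay above their group median. PBS-PO replicate 2, the PBS library with the highest muscle score, was high for Rasl11a (3.60 TPM against a group median of 0.938), Per2 (225 against 45.4), Bhlhe41 (33.5 against 13.9), Eln (106 against 30.8), Tagln (10480.0 against 2933) and Elavl3 (30.6 against 9.40). Ampicillin-PO replicate 1 was high for Fdft1 (73.2 against 51.2), Hmgcs1 (238 against 149.8), Hoxb13 (259 against 24.0), Spink4 (209 against 33.7) and Herpud1 (96.8 against 66.1). Dbp in PBS-PO replicate 3 was 378 TPM against a median of 224, and Usp2 in Ampicillin-PO replicate 5 was 31.4 against 18.1. Cyp2c55 reached 2780 TPM in PBS-PO replicate 1, against a median of 472, and Dusp1 reached 135 in Ampicillin-PO replicate 4, against 50.1.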

How the results depend on the processing

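The count of 12 called genes stayed between 12 and 14 with a pseudocount of 10, no filter, quantile normalization, rescaling without mitochondrial genes or without the 12 libraries placed out of order at the end of the table. It was 38 with the muscle and Hox covariates, 0 in the compared groups alone and 3095 with array weights (1827 higher, 1268 lower). With array weights 10 of 18 smooth muscle and 6 of 20 neuron and glia genes were called higher. In the same fit 9 of 16 goblet cell, 10 of 24 proliferation, 11 of 25 cholesterol and 7 of 26 type I interferon genes were called lower. Leaving out 1 library gave 7 to 26 calls: 7 without Ampicillin-PO replicate 6 or PBS-PO replicate 4, and 26 without PBS-PO replicate 2. The cause of these changes was not tested. Against Vancomycin-PO the count of 0 became 2 with a pseudocount of 10, 3 with no filter, 1 with quantile normalization, 4 with array weights and 2 with covariates, and ran from 0 to 2 with a library left out. Against Mix-PO the count of 10 became 6 with quantile normalization and 4763 with array weights, and ran from 0 to 10. The route test gave 0 in every alternative and from 0 to 0 with a library left out. Signs turned with the covariates for Cry2 (-0.0032), Rora (-0.16), Bhlhe40 (0.0497), Ephx1 (-0.72) and Tagln (-0.24), and for Ephx1 without Ampicillin-PO replicate 6 (-0.0239; range from -0.0239 to 0.41). With the replicate number as a block 13 genes were called. The deviations of same-numbered libraries from their groups had correlations of -0.59 to 0.15. The uneven muscle and Hox content of the pieces also enters these correlations, so they cannot decide whether the numbers mark a pairing. The labels do not state one. Median fold changes shifted with scaling, from 0.08 to -0.00 under quantile normalization.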
